A study of Mus musculus with 800 samples.

Results

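Cacna1g, Cacna1h, Cacna1i, Cacna2d1, Cacna2d2 and Cacna2d3 encode the pore subunits of the T-type calcium channels and the main neuronal alpha2delta subunits. All 6 genes were taken by their Ensembl identifiers from a read count table of 32285 mouse genes, and all 6 had a row in it. Their levels were measured in 800 single nuclei that carried a fluorescent histone reporter (H2B-SYFP2), came from C57Bl/6J mice and were sequenced with SMART-Seq v4, a full-length poly(A) RNA method. The nuclei came in 40 per vector from 20 adeno-associated virus vectors packaged in the PHP.eB capsid, which crosses into the brain from the blood. In 2 vectors the reporter was driven by the hSyn1 or the CMV promoter, in 2 more by the interneuron enhancers DLX2.0 and hI56i, and in the others by the enhancers AiE0078h, AiE0140h, AiE0387m, AiE0390m, AiE0391h, AiE0401h, AiE0410m, AiE0445h_3xC2, AiE0447h, AiE0450h, AiE0452h, AiE0475m, AiE0600m, AiE0682h, AiE0743m_3xC2 and AiE0779m. Each mouse received 5e11 vector genomes as a young adult, and nuclei were taken 3 to 4 weeks later. The labels name no animal, so a vector counted as 1 sample, its nuclei were not treated as replicates, and no vector was compared with another by a test. No nuclei from uninjected mice were among the samples, and a sorted nucleus had to show the reporter, so nuclei in which a vector was silent were not seen.

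T-type channels open at voltages close to rest, pass a brief calcium current and then inactivate. They are known for burst firing and rhythmic activity, in thalamus above all. The alpha2delta subunits are extracellular, membrane-anchored proteins that raise the surface number of high-voltage-activated calcium channels and take part in synapse formation. The products of Cacna2d1 and Cacna2d2 bind the drugs gabapentin and pregabalin and that of Cacna2d3 does not, and a run of arginines ahead of the von Willebrand factor A domain is needed for this binding.

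The coding stretch that starts at this run and ends in the metal-binding motif of the domain is shown for the 3 alpha2delta genes, because it is the place where the family is known to part in drug binding. Each is 75 bases or 25 codons, written 5′ to 3′ on the coding strand, with the 3 codons of the arginine run in capitals.
Cacna2d1: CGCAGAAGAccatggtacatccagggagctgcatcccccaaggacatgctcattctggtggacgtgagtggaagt
Cacna2d2: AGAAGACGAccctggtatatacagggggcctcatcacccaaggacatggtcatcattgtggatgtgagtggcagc
Cacna2d3: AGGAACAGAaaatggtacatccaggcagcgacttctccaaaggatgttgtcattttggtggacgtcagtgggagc
The stretch of Cacna2d1 lies at chr5:16264314-16267385 on the plus strand of mm10 and is spliced from exons 8 to 10, that of Cacna2d2 at chr9:107512347-107513242 on the plus strand from exons 8 to 10, and that of Cacna2d3 at chr14:29346971-29347135 on the minus strand from exons 7 to 8. All 3 capitalised codons encode arginine in Cacna2d1 and in Cacna2d2, against 2 of 3 in Cacna2d3. Over the 75 bases, Cacna2d1 and Cacna2d2 shared 58 bases (77.3%) and 22 of 25 residues. Cacna2d3 shared 55 bases (73.3%) with Cacna2d1 and 50 bases (66.7%) with Cacna2d2, and 19 of 25 residues with either.

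The 6 genes lie on different chromosomes, and their exons cover similar lengths within very different spans. In the GENCODE M21 annotation of mm10, Cacna1g spans chr11:94408391-94474198 with 10.137 kb of exon, Cacna1h chr17:25374285-25433783 with 9.763 kb and Cacna1i chr15:80287238-80398279 with 9.862 kb. Cacna2d1 spans chr5:15934691-16374511 with 12.416 kb of exon, Cacna2d2 chr9:107399612-107529343 with 7.947 kb and Cacna2d3 chr14:28904943-29721864 with 8.72 kb. Cacna2d3 thus covered 816922 bases and Cacna1h 59499. The count table holds unstranded reads, so reads of a gene inside or across another cannot be told apart from it: Cacna2d3 overlaps 7 annotated genes, among them Lrtm1, Cacna1h overlaps Tpsg1, Cacna2d1 overlaps 3 and Cacna2d2 overlaps 2. Levels are set between genes only per kb of exon, and since nuclear RNA holds introns and the counting of introns is not given in the sources used here, these per-kb values may also carry the length of the introns.

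Counts per nucleus had a median of 260170.5 and ran between 70 and 901264. The 698 nuclei with at least 1000 detected genes were kept and grouped by clustering without the 6 genes and without 63 further calcium-handling genes. By marker genes, 161 nuclei were striatal projection neuron-like (SPN-like, from 15 vectors), 273 GABAergic-like (20 vectors), 108 glutamatergic-like (17 vectors), 106 astrocyte-like (13 vectors) and 50 oligodendrocyte-like (10 vectors). The SPN-like nuclei go against their labels, which give anterior lateral motor cortex for all 800, whereas the design text also names striatum among the sorted regions. All 8 SPN markers were detected in this cluster and their summed level had a median of 6575 CPM (counts scaled to a total of 1e+06) per nucleus, against 232 CPM in GABAergic-like and 203 CPM in glutamatergic-like nuclei. SPN-like nuclei fell in 38 of the 100 runs of 8 consecutive title numbers. The other runs held 496 of the 800 labelled nuclei, a number that includes nuclei under 1000 genes, which were not kept. Without those 38 runs the 24 mean levels of the 6 genes in the other 4 classes all moved by less than 1 SD over vectors. This limit is wide where the SD exceeds the mean. For Cacna1h in GABAergic-like nuclei (5.89 ± 10.04 CPM), for example, a fall to 0 would still lie within it, so such levels could not fail by falling. Fewer RNA copies per nucleus and fewer nuclei of a type within a class cannot be told apart in these sums.

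Levels by class are given over vectors with at least 3 nuclei of the class, which left 14 vectors for SPN-like, 18 for GABAergic-like, 12 for glutamatergic-like, 9 for astrocyte-like and 7 for oligodendrocyte-like nuclei. The 6 genes were chosen from their levels across these classes and vectors, so the class levels are a description and carry no test.

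Cacna1g, the Cav3.1 pore gene, was read mainly in GABAergic-like and glutamatergic-like nuclei and was at or near 0 in SPN-like nuclei. It averaged 2.35 ± 8.46 CPM in SPN-like nuclei (SD, n = 14 vectors), with 11 of the 14 vectors at 0 and the highest at 31.7 CPM. In GABAergic-like nuclei it averaged 61.3 ± 42.6 CPM (SD, n = 18), with a lowest value of 0, a median of 62.6 and a highest of 164 CPM. In glutamatergic-like nuclei it averaged 94.2 ± 59.3 CPM (SD, n = 12), with 7.25, 85.9 and 183 CPM as lowest, median and highest. The GABAergic-like and glutamatergic-like values overlapped and differed by less than the larger SD, while the GABAergic-like mean lay above the SPN-like mean by more than it. Reads of Cacna1g were found in 3 of 161 SPN-like nuclei (1.9%), 86 of 273 GABAergic-like nuclei (31.5%) and 52 of 108 glutamatergic-like nuclei (48.1%).

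Cacna1h, the Cav3.2 pore gene, was highest in SPN-like nuclei, where Cacna1g was at or near 0. It averaged 89.6 ± 70.0 CPM in SPN-like nuclei (SD, n = 14 vectors), with 0, 99.2 and 233 CPM as lowest, median and highest. In GABAergic-like nuclei it averaged 5.89 ± 10.04 CPM, with 9 of 18 vectors at 0 and a highest value of 37.2 CPM. In glutamatergic-like nuclei it averaged 20.2 ± 22.6 CPM, between 0 and 63.8 CPM. Every pair of neighbouring classes overlapped and differed by less than the larger SD. It was detected in 48 of 161 SPN-like nuclei (29.8%), 15 of 273 GABAergic-like nuclei (5.5%) and 15 of 108 glutamatergic-like nuclei (13.9%).

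Cacna1i, the Cav3.3 pore gene, whose current inactivates most slowly of the family, was at similar levels in SPN-like and glutamatergic-like nuclei. It averaged 38.1 ± 42.7 CPM in SPN-like, 13.1 ± 14.1 CPM in GABAergic-like and 32.1 ± 40.8 CPM in glutamatergic-like nuclei, and these ranges overlapped. Reads were found in 35 of 161 SPN-like nuclei (21.7%), 23 of 273 GABAergic-like nuclei (8.4%) and 23 of 108 glutamatergic-like nuclei (21.3%). Per kb of exon, the leading T-type level was 9.17 CPM per kb for Cacna1h in SPN-like nuclei, 6.05 CPM per kb for Cacna1g in GABAergic-like nuclei and 9.29 CPM per kb for Cacna1g in glutamatergic-like nuclei.

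Most nuclei had reads of 1 T-type gene at the most. With each nucleus thinned to 150000 counts, no T-type gene had a read in 53.7% of 149 SPN-like, 60.0% of 260 GABAergic-like and 39.6% of 101 glutamatergic-like nuclei. At least 2 of the 3 genes were read in 5.4% of SPN-like, 4.6% of GABAergic-like and 15.8% of glutamatergic-like nuclei. These are shares of nuclei with reads at this depth, not of nuclei that lack the gene.

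Cacna2d3, the alpha2delta-3 gene, had the highest level per kb of exon of the 6 genes, at 157 CPM per kb in SPN-like, 26.6 in GABAergic-like and 37.8 in glutamatergic-like nuclei. It averaged 1370.3 ± 219.6 CPM in SPN-like nuclei (SD, n = 14 vectors), with 1096, 1324 and 1774 CPM as lowest, median and highest. In GABAergic-like nuclei it averaged 232 ± 180 CPM (SD, n = 18), with 20.3, 192 and 763 CPM. In glutamatergic-like nuclei it averaged 329.8 ± 205.6 CPM (SD, n = 12), with 0, 294 and 768 CPM. The lowest SPN-like vector thus lay above the highest glutamatergic-like and GABAergic-like vectors, while the ranges of those 2 classes overlapped. It had reads in 154 of 161 SPN-like nuclei (95.7%, 95% Clopper-Pearson interval 91.2 to 98.2), 108 of 273 GABAergic-like nuclei (39.6%) and 72 of 108 glutamatergic-like nuclei (66.7%).

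Cacna2d1, the alpha2delta-1 gene and a gabapentin target, was highest in glutamatergic-like nuclei. It averaged 127 ± 94.8 CPM in SPN-like nuclei, with 8.15, 128 and 389.9 CPM as lowest, median and highest over 14 vectors. In GABAergic-like nuclei it averaged 51.4 ± 54.0 CPM, with 0, 35.2 and 198 CPM over 18 vectors. In glutamatergic-like nuclei it averaged 386 ± 194 CPM, with 139, 374 and 776 CPM over 12 vectors. The glutamatergic-like mean lay above the SPN-like mean by more than the larger SD, although their ranges overlapped. It was read in 78 of 161 SPN-like nuclei (48.4%), 40 of 273 GABAergic-like nuclei (14.7%) and 88 of 108 glutamatergic-like nuclei (81.5%, interval 72.9 to 88.3).

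Cacna2d2, the alpha2delta-2 gene, the other gabapentin target and the gene mutated in ducky mice with absence epilepsy, was highest in GABAergic-like nuclei. It averaged 17.6 ± 18.6 CPM in SPN-like nuclei, between 0 and 49.3 CPM over 14 vectors. In GABAergic-like nuclei it averaged 63.9 ± 32.6 CPM, with 6.89, 67.2 and 137 CPM as lowest, median and highest over 18 vectors. In glutamatergic-like nuclei it averaged 2.40 ± 3.36 CPM, between 0 and 9.22 CPM over 12 vectors. The glutamatergic-like values were all below the GABAergic-like median. Reads were found in 30 of 161 SPN-like nuclei (18.6%), 157 of 273 GABAergic-like nuclei (57.5%) and 10 of 108 glutamatergic-like nuclei (9.3%).

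**Figure D1:**
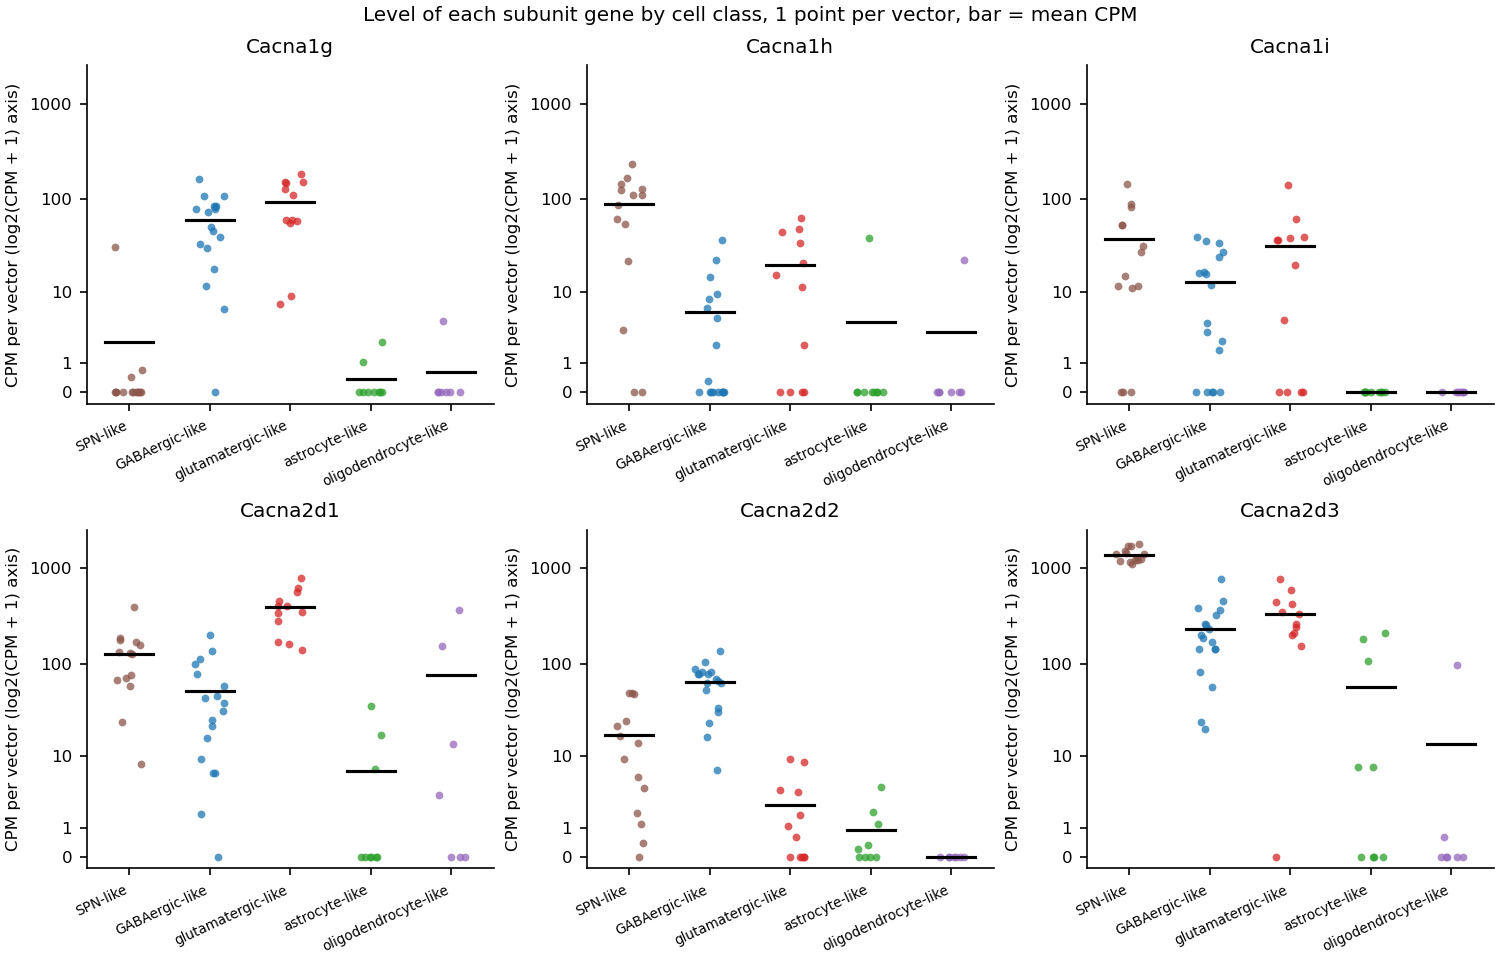
Level of each of the 6 genes in CPM on a log2(CPM + 1) axis, by cell class, 1 point per vector with at least 3 nuclei of the class and a bar at the mean CPM. Cacna2d3 lies at 1096 to 1774 CPM in SPN-like nuclei, above every other class, while Cacna1g is at 0 in 11 of the 14 SPN-like points and Cacna2d2 stays at or below 9.22 CPM in the glutamatergic-like points.

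Each of the 6 genes had reads in few or no astrocyte-like and oligodendrocyte-like nuclei. The median depths of these 2 classes were 300958 and 297629 counts, above the 241227 of SPN-like nuclei. Cacna2d3 was read in 8 of 106 astrocyte-like nuclei (7.5%) and 2 of 50 oligodendrocyte-like nuclei (4.0%), and Cacna2d1 in 8 of 106 (7.5%) and 5 of 50 (10%). These are shares in cells not known for these channels, and the source of their reads was not tested. The 1.9% of SPN-like nuclei with reads of Cacna1g did not exceed the 2.8% of astrocyte-like nuclei. The share of GABAergic-like nuclei with reads of Cacna1h (5.5%, interval 3.1 to 8.9) lay above the 2.8% of astrocyte-like nuclei, with overlapping intervals (0.59 to 8.05 in astrocyte-like nuclei). The share of glutamatergic-like nuclei with reads of Cacna2d2 (9.3%, interval 4.5 to 16.4) took in the 6.6% of astrocyte-like nuclei. No read of Cacna1i or Cacna2d2 was found in the 50 oligodendrocyte-like nuclei, which allows shares of nuclei with a read of up to 7.1%. Cacna2d1 averaged 75.6 ± 137 CPM in oligodendrocyte-like nuclei, with a median of 3.41 CPM and 361 CPM under AiE0140h, so that this mean rests on few nuclei. It lay above the 51.4 ± 54.0 CPM of GABAergic-like nuclei by less than the larger SD, with overlapping ranges. Intervals and limits here cover counting error only. They treat nuclei pooled over vectors as independent and leave out the spread between vectors and between animals, which are not named. Reads without molecular identifiers are also not independent molecules.

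**Figure D2:**
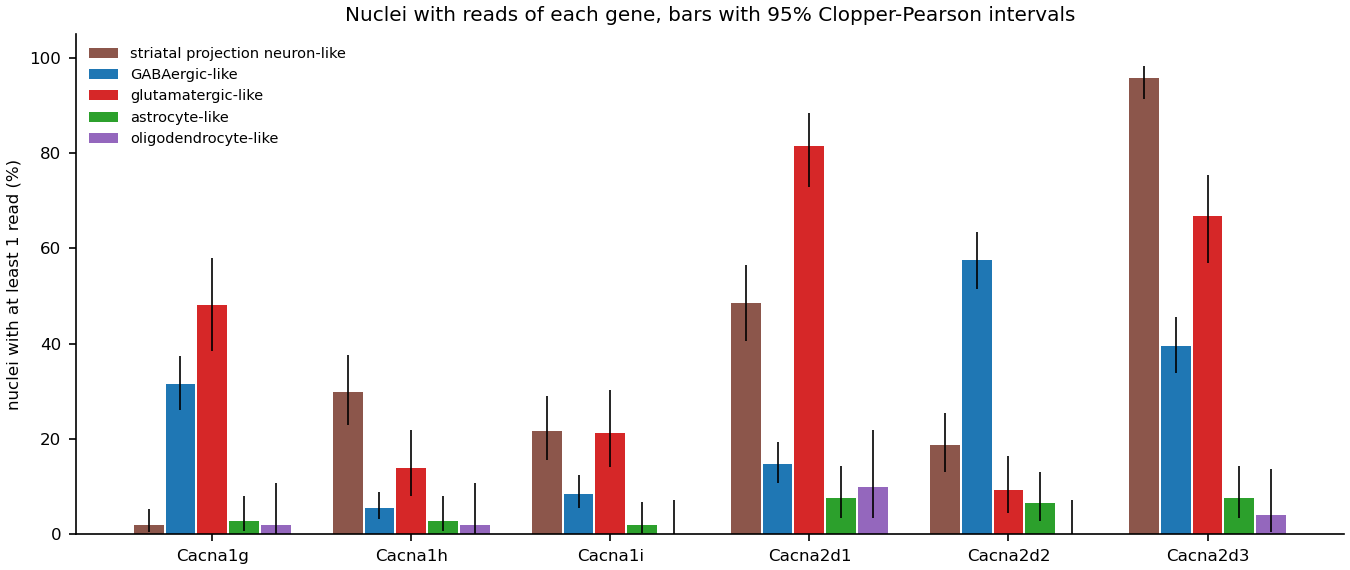
Share of nuclei with at least 1 read of each gene, in percent, by cell class, with exact (Clopper-Pearson) 95% limits for counting error over nuclei pooled across vectors. Cacna2d3 reaches 95.7% in SPN-like nuclei, Cacna2d1 81.5% in glutamatergic-like nuclei and Cacna2d2 57.5% in GABAergic-like nuclei, and all 6 genes stay at or below 10% in astrocyte-like and oligodendrocyte-like nuclei.

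The same levels by class and vector were also set side by side within vectors. Because the 6 genes were chosen from such levels, these comparisons within vectors are a description too and carry no test. In the 12 vectors with at least 3 GABAergic-like and 3 glutamatergic-like nuclei, Cacna2d1 averaged 56.1 ± 61.9 CPM in GABAergic-like and 386 ± 194 CPM in glutamatergic-like nuclei, was lower in GABAergic-like nuclei in 12 of 12 vectors and had a fitted log2 difference of -3.67 ± 0.57 (SE). Cacna2d2 ran the other way, with 63.1 ± 38.6 CPM in GABAergic-like and 2.40 ± 3.36 CPM in glutamatergic-like nuclei, and was higher in GABAergic-like nuclei in 12 of 12 vectors (5.63 ± 1.43). Cacna2d3 and Cacna1g differed by less than their SE, at -0.53 ± 0.63 and -0.84 ± 0.95.

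In the 12 vectors with at least 3 SPN-like and 3 GABAergic-like nuclei, Cacna2d3 averaged 1346 ± 201 CPM in SPN-like and 255 ± 197 CPM in GABAergic-like nuclei, a fitted 6.79-fold difference that was present in 12 of 12 vectors. Cacna1h averaged 103 ± 66.7 CPM in SPN-like and 7.86 ± 11.7 CPM in GABAergic-like nuclei and was higher in SPN-like nuclei in 10 of 12 vectors. Cacna1g, at 2.74 ± 9.13 against 75.7 ± 41.2 CPM, was lower in SPN-like nuclei in 11 of 12 vectors, as was Cacna2d2, at 16.1 ± 17.3 against 57.2 ± 28.3 CPM. Cacna2d1 and Cacna1i were less uniform across vectors, with SPN-like nuclei higher in 8 and in 7 of the 12. Both comparisons of classes share the GABAergic-like nuclei of the same vectors.

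In 15 vectors that held 3 or more nuclei on either side, the 6 genes had lower mean levels in astrocyte-like and oligodendrocyte-like nuclei combined (non-neuronal) than in the 3 neuronal classes combined. Cacna2d3 averaged 36.3 ± 66.3 CPM in non-neuronal nuclei and 626 ± 419 CPM in neuronal nuclei, and was lower in 14 of 15 vectors. Cacna2d2, at 0.51 ± 1.17 against 41.4 ± 24.8 CPM, was lower in 15 of 15. Cacna1i had no count in the non-neuronal sums, against 30.9 CPM in the pooled neuronal sums, so within these sums it was at least 482-fold lower on the non-neuronal side by a floor of 3 counts over their total (0.0642 CPM). Outside these sums, 2 astrocyte-like nuclei held 29 counts of it, which makes 0.888 CPM over all 106 astrocyte-like nuclei.

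The alpha2delta gene with the most reads per kb of exon was counted in each nucleus after thinning to 150000 counts, which 35 of the 698 nuclei did not reach. Cacna2d3 led in 139 of 149 SPN-like nuclei (93.3%). In GABAergic-like nuclei the lead was split, with Cacna2d2 in 37.7%, Cacna2d3 in 34.6% and Cacna2d1 in 8.5% of 260, and none of the 3 had a read in 19.2%. In glutamatergic-like nuclei Cacna2d3 led in 50.5% and Cacna2d1 in 37.6% of 101, and Cacna2d2 in 2.0%. Reads of at least 2 alpha2delta genes were found in 53.7% of SPN-like, 23.8% of GABAergic-like and 59.4% of glutamatergic-like nuclei. Without thinning, Cacna2d3 led in 93.8% of 161 SPN-like nuclei and Cacna2d2 in 38.5% of 273 GABAergic-like nuclei.

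The split within GABAergic-like nuclei followed the clusters. In the cluster led by Pvalb, Kcnc1 and Erbb4, genes of fast-spiking interneurons, Cacna2d2 led in 66.7% of 93 nuclei, Cacna2d3 in 8.6% and Cacna2d1 in none. In the cluster led by Sst, Npy and Serpini1, Cacna2d3 led in 55.4% of 74 nuclei, Cacna2d2 in 27.03% and Cacna2d1 in 1.4%. In the cluster led by Sst, Npy and Nos1, Cacna2d3 led in 79.2% of 24 nuclei. In the cluster led by Adarb2, Npy and Cpne7, Cacna2d1 led in 57.7% of 26 nuclei. In the cluster led by Scg2 and Gpr83, Cacna2d3 led in 41.9% and Cacna2d2 in 30.2% of 43 nuclei. The genes that define a cluster were not among the 6, and no test was run between clusters here.

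**Figure D3:**
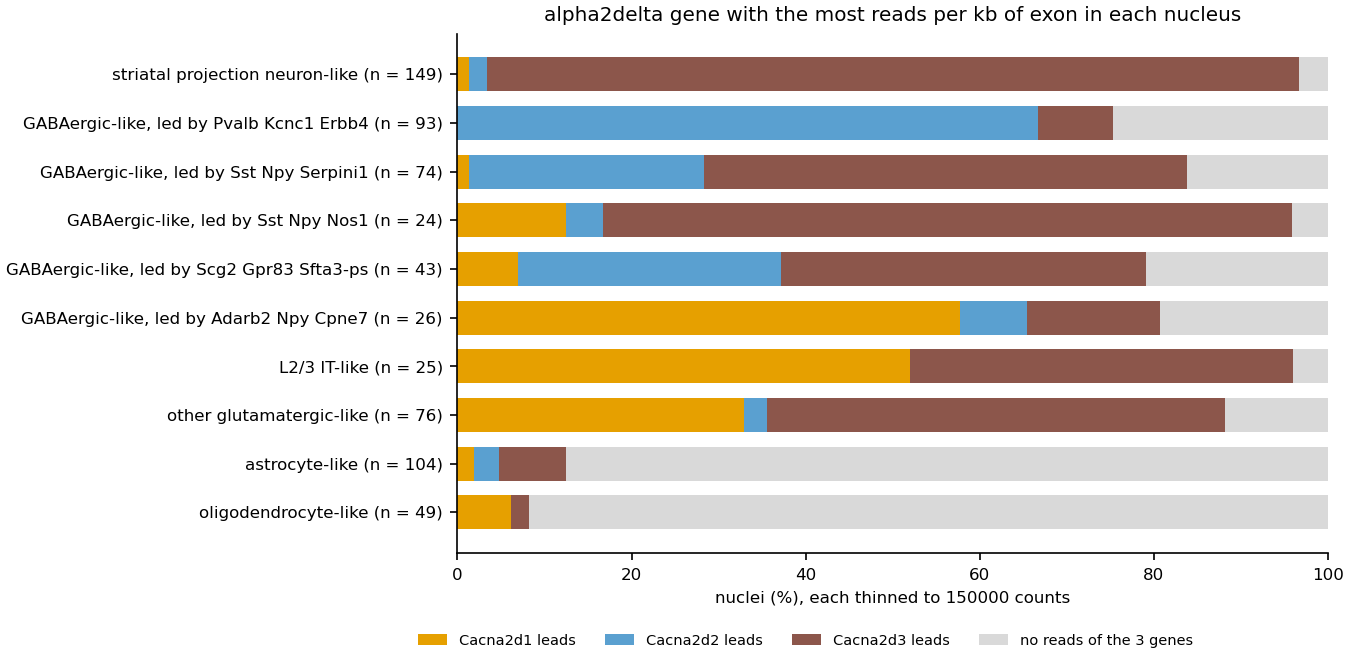
Percent of nuclei in which Cacna2d1, Cacna2d2 or Cacna2d3 had the most reads per kb of exon, each nucleus thinned to 150000 counts, for the cell classes and the clusters within them. Cacna2d3 leads in 93.3% of SPN-like nuclei, Cacna2d2 in 66.7% of the Pvalb-led cluster, and Cacna2d1 in 57.7% of the Adarb2-led cluster and in 52.0% of L2/3 IT-like nuclei.

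The levels of the single genes parted between these clusters as well. In the Pvalb-led cluster (97 nuclei, 14 vectors), Cacna2d2 averaged 90.2 ± 57.3 CPM, Cacna2d3 42.0 ± 94.4 CPM, Cacna1g 18.95 ± 34.99 CPM and Cacna2d1 0.82 ± 3.07 CPM. Cacna2d1 had reads in 1 of the 97 nuclei and Cacna2d3 in 9. In the cluster led by Sst, Npy and Serpini1 (82 nuclei, 11 vectors), Cacna2d3 averaged 260.2 ± 212.2 CPM, Cacna1g 85.9 ± 88.8 CPM, Cacna2d2 68.8 ± 44.9 CPM and Cacna2d1 7.47 ± 21.9 CPM. The Adarb2-led cluster (27 nuclei, 4 vectors) had Cacna1g at 114.6 ± 34.4 CPM, reads of Cacna2d1 in 17 of 27 nuclei and no read of Cacna1i. Its Cacna2d1 was unevenly spread, at 26.5 ± 19.02 CPM over the 4 vectors and 194 CPM over all 27 nuclei pooled. No T-type gene had a read in 79.6% of the Pvalb-led nuclei, against 47.3% of the nuclei of the cluster led by Sst, Npy and Serpini1.

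Whether the 6 genes differ between Pvalb and Sst interneurons was tested in 14 vectors, with each GABAergic-like nucleus placed by its summed markers: 137 nuclei with more reads of Pvalb, Tac1, Pthlh and Erbb4 (Pvalb-marker nuclei) and 124 with more of Sst, Chodl, Nos1 and Npy (Sst-marker nuclei). This is a range and not a cell type, since 12 nuclei lay between 40 and 60% and Erbb4 alone gave most of the Pvalb-side sum in 38 of the 137. Genes were called at an adjusted p below 0.05 with edgeR's quasi-likelihood test, which called 34 of 8302 genes (0.41%, with 0.229% higher and 0.181% lower in Pvalb-marker nuclei). Of the 6 genes, 4 passed the filter on low counts and none was called. Cacna2d3 was called only when clusters took the place of the marker sums, a comparison added after the data had been seen. At an unadjusted p below 0.05, Cacna2d1 alone passed, and DESeq2 also called 1 of the 4, again Cacna2d1. Over all 8302 genes, 442 had an unadjusted p below 0.05 with edgeR, and DESeq2 called 622.

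Cacna2d1 averaged 18.3 ± 29.9 CPM in Pvalb-marker and 76.4 ± 73.9 CPM in Sst-marker nuclei (SD, n = 14 vectors), with medians of 2.64 and 63.3 CPM, and was lower in Pvalb-marker nuclei in 11 of 14 vectors. Its log2 difference was -4.0 ± 1.89 (SE; edgeR adjusted p = 0.89). DESeq2 gave -4.19 with an adjusted p of 0.000966. Npy, a marker of the Sst side, is also among the leading genes of the Adarb2-led cluster. Cacna2d1 had 2075 counts in Sst-marker nuclei and 1246 in the Adarb2-led cluster. The cluster led by Sst, Npy and Serpini1 had 208, and that led by Sst, Npy and Nos1 had 775. The highest nucleus had 1964.5 CPM both among Sst-marker nuclei and in the Adarb2-led cluster. How much of this difference lies between Pvalb and Sst interneurons was not tested. Cacna2d3 averaged 103 ± 117 CPM in Pvalb-marker and 237 ± 169 CPM in Sst-marker nuclei and was lower in 12 of 14 vectors, at -2.02 ± 1.24 (edgeR adjusted p = 1.0). Cacna1g averaged 41.3 ± 37.003 CPM in Pvalb-marker and 90.8 ± 65.4 CPM in Sst-marker nuclei and was lower in 11 of 14 vectors, at -1.55 ± 0.92 (edgeR adjusted p = 1.0). Cacna2d2 averaged 80.7 ± 44.6 CPM in Pvalb-marker and 56.8 ± 37.9 CPM in Sst-marker nuclei and was higher in 9 of 14 vectors, at 0.73 ± 0.81 (edgeR adjusted p = 1.0). The ranges of both sides overlapped for each of these 4 genes. Cacna1h, at 6.37 ± 9.01 against 1.004 ± 3.21 CPM, and Cacna1i, at 10.2 ± 19.4 against 29.2 ± 41.7 CPM, did not pass the filter.

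The Pvalb-led cluster was also set against both Sst-led clusters joined. In the 12 vectors with 3 or more nuclei of both, Cacna2d3 averaged 49.0 ± 101 CPM in the Pvalb-led cluster and 279.6 ± 208.2 CPM in the Sst-led clusters and was lower in 11 of 12 vectors (-7.35 ± 1.65 SE, edgeR adjusted p = 0.030). Cacna1g averaged 19.4 ± 37.4 against 95.5 ± 76.1 CPM and was lower in 10 of 12. Cacna2d2 averaged 94.4 ± 59.0 against 61.9 ± 46.4 CPM and was higher in 9 of 12. The fitted size for Cacna2d3 depends on the prior count, since 10 of the 14 vectors with the Pvalb-led cluster were at 0. The comparison of clusters was added after the data had been seen.

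Within the SPN-like nuclei, 92 had more reads of Drd1, Isl1, Pdyn and Tac1 (Drd1-type, the direct pathway) and 68 more of Drd2, Adora2a, Gpr6 and Penk (Drd2-type, the indirect pathway), and 6 lay between 40 and 60%. No difference between them was called for any of the 4 genes that passed the filter in 7 vectors, where edgeR called 7 of 7017 genes (0.0998%, with 0.0285% higher and 0.0713% lower in Drd1-type nuclei). None of the 4 had an unadjusted p below 0.05 and DESeq2 called none. Over all 7017 genes, 196 had an unadjusted p below 0.05 with edgeR, and DESeq2 called 230. Cacna2d3 averaged 1305 ± 326 CPM in Drd1-type and 1299.6 ± 266.0 CPM in Drd2-type nuclei (SD, n = 7 vectors), a log2 difference of 0.09 ± 0.24 (SE; edgeR adjusted p = 0.9995). Its values ran between 1054 and 1990.0 CPM in Drd1-type and between 956 and 1651 CPM in Drd2-type nuclei. Cacna1h averaged 109.6 ± 68.9 CPM in Drd1-type and 101 ± 67.5 CPM in Drd2-type nuclei, a log2 difference of -0.0054 ± 0.94 (edgeR adjusted p = 0.9995). Cacna2d1 averaged 72.1 ± 30.4 against 85.8 ± 77.8 CPM (0.58 ± 1.36) and Cacna1i 76.0 ± 82.5 against 28.1 ± 21.5 CPM (0.71 ± 1.69), with the wide errors that few vectors and sparse counts give. The fitted difference of Cacna2d1 runs against that of its means. Cacna1g and Cacna2d2 did not pass the filter. Cacna1g had no count in the Drd1-type nuclei of these vectors and 115 counts in the Drd2-type nuclei, nearly all under AiE0743m_3xC2. Cacna2d3 led the alpha2delta genes in 92.9% of 84 Drd1-type and 93.8% of 64 Drd2-type nuclei.

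**Figure D4:**
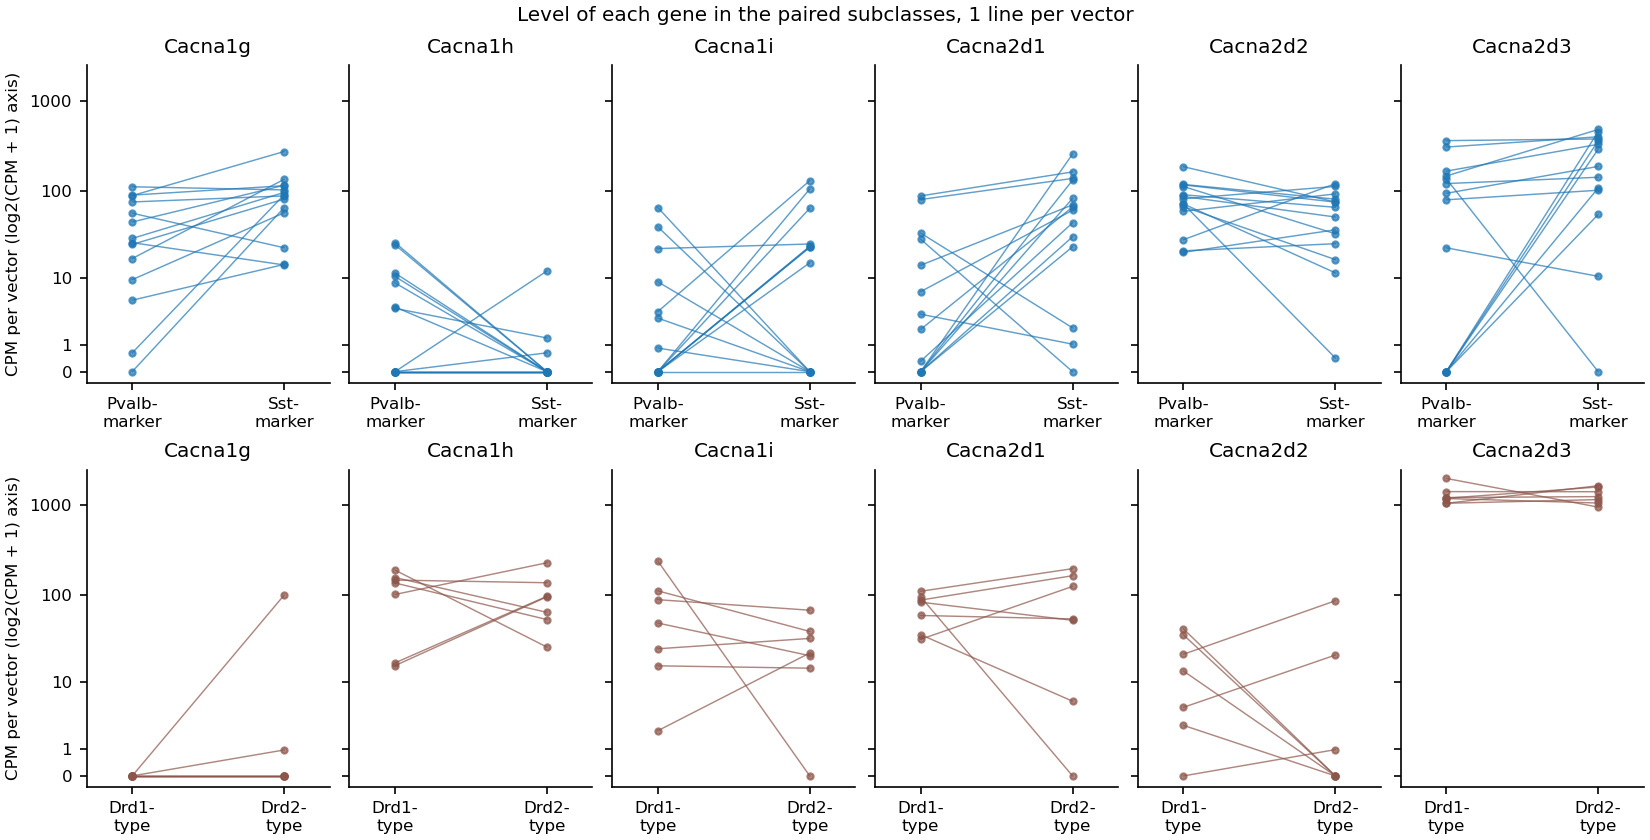
Level of each gene in CPM on a log2(CPM + 1) axis, 1 line per vector joining the Pvalb-marker and Sst-marker nuclei (upper row, 14 vectors) and the Drd1-type and Drd2-type nuclei (lower row, 7 vectors). Cacna2d1, Cacna2d3 and Cacna1g are lower on the Pvalb side in 11, 12 and 11 of 14 vectors with overlapping ranges, and the lines of Cacna2d3 stay between 956 and 1990.0 CPM in the lower row.

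Among glutamatergic-like nuclei, the L2/3 IT-like subcluster (27 nuclei, 3 vectors with at least 3) had more Cacna2d1. It averaged 766 ± 147 CPM there, with 597, 841 and 859.6 CPM in the 3 vectors, and 298 ± 145 CPM in the other glutamatergic-like nuclei (81 nuclei, 11 vectors), with a highest value of 538 CPM. The 3 L2/3 IT-like values thus lay above those of the other glutamatergic-like nuclei. Within the same vector the gap varied, with 859.6 against 119 CPM under hSyn1, 841 against 362 CPM under CMV and 597 against 537 CPM under AiE0140h. Cacna1h averaged 84.6 ± 46.7 CPM in L2/3 IT-like and 13.3 ± 16.8 CPM in other glutamatergic-like nuclei. Cacna2d3 differed less, at 414 ± 145 against 348 ± 249 CPM. Cacna2d1 led the alpha2delta genes in 52.0% of 25 L2/3 IT-like and 32.9% of 76 other glutamatergic-like nuclei. No test was planned for this subcluster, and the values stand as a description.

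Across vectors, the levels over all nuclei kept also depend on which classes a vector labelled. Cacna2d3 ran from 36.7 CPM under AiE0390m through a median of 397 CPM to 930.2 CPM under AiE0410m. The vectors with the highest shares of SPN-like nuclei were AiE0779m (67.7% of 31), AiE0387m (62.5% of 40) and AiE0410m (58.3% of 12), and they had 894, 862 and 930.2 CPM. The 5 vectors with no SPN-like nucleus kept had 36.7 CPM (AiE0390m), 336 CPM (AiE0452h), 137 CPM (CMV), 141 CPM (DLX2.0) and 153 CPM (hSyn1). Cacna2d1 was highest under hSyn1 (285 CPM) and CMV (223 CPM), the vectors with the largest shares of glutamatergic-like nuclei at 71.1 and 48.6%. It was lowest under AiE0600m (6.21 CPM), of whose 40 nuclei 70.0% were GABAergic-like, and it reached 176 CPM under AiE0682h with 12.8% glutamatergic-like nuclei. Cacna2d2 was highest under AiE0452h (69.1 CPM), where 82.9% of 35 nuclei were GABAergic-like, and lowest under hI56i (1.91 CPM), where 14.8% of 27 were. Between these ends the order was not that of the shares, with 35.9 CPM under AiE0410m (8.3% of 12 GABAergic-like), 19.3 CPM under AiE0401h (60.0% of 40) and 17.4 CPM under AiE0078h (42.5% of 40). Of the T-type genes, Cacna1g ran between 0 under AiE0410m and 70.9 CPM under CMV, Cacna1h between 0 under AiE0390m and AiE0410m and 60.3 CPM under hI56i, and Cacna1i between 0 under AiE0390m and 65.7 CPM under CMV.

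**Figure D5:**
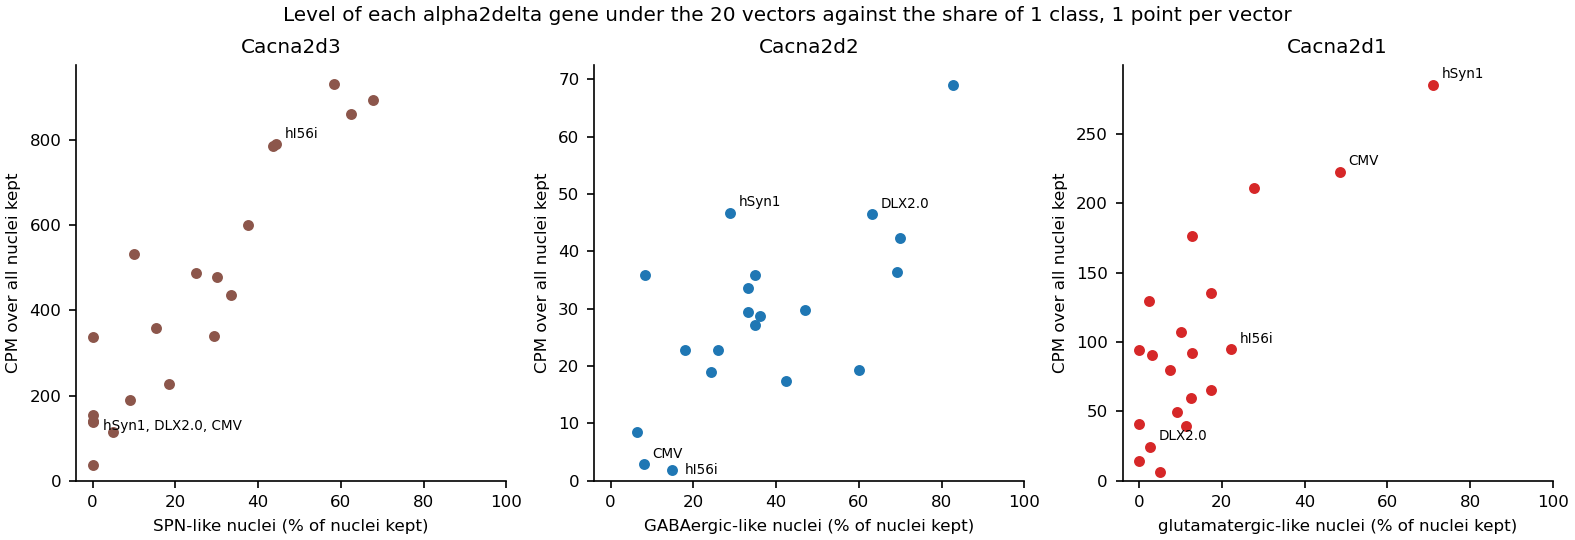
Level of Cacna2d3, Cacna2d2 and Cacna2d1 in CPM over all nuclei kept, against the percent of SPN-like, GABAergic-like and glutamatergic-like nuclei, 1 point per vector (20 vectors). Cacna2d3 reaches 930.2 CPM and stays at or above 785 CPM in the 5 vectors with over 40% SPN-like nuclei, and Cacna2d1 is highest in hSyn1 and CMV, at 285 and 223 CPM.

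The other parts of the calcium machinery were followed in 9 lists of 63 genes: high-voltage pore subunits, beta and gamma subunits, other alpha2delta genes, channel regulators, calcium-activated potassium channels, HCN channels, binding partners, and calcium stores and pumps. These lists were tested with edgeR's quasi-likelihood test over all genes, with the vector as a block. Between GABAergic-like and glutamatergic-like nuclei, where 3.16% of 8943 genes were called (1.69% higher, 1.48% lower), 34 of the 63 passed the filter, none was higher and 3 were lower. At an unadjusted p below 0.05, 1 of the 34 was higher, and DESeq2 called 4 higher. Over all 8943 genes, 1031 had an unadjusted p below 0.05 in either direction with edgeR, and DESeq2 called 1000 higher. The median log2 difference was -0.28 over these 34 genes and 0.34 over all genes tested.

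The 3 lower genes were Atp2b1, Grin2b and Cacna1e. Atp2b1, a plasma membrane calcium pump, averaged 583 ± 159 CPM in GABAergic-like and 1615 ± 307 CPM in glutamatergic-like nuclei (SD, n = 12 vectors) and was lower in 12 of 12 vectors (-1.63 ± 0.17 SE, edgeR adjusted p = 6.09e-07). Grin2b, an NMDA receptor subunit, averaged 715 ± 295 against 1152 ± 215 CPM (edgeR adjusted p = 0.0079). Cacna1e, the R-type pore gene, averaged 131 ± 92.1 CPM in GABAergic-like and 458 ± 246 CPM in glutamatergic-like nuclei (edgeR adjusted p = 0.030), and this call was lost on leaving out any 1 of 6 vectors (AiE0078h, AiE0450h, AiE0452h, AiE0475m, AiE0682h or hSyn1; adjusted p 0.011 to 0.075 over the 12 vectors left out in turn). Without the runs that hold SPN-like nuclei, which left 5 vectors, Atp2b1 was still called, while Grin2b (adjusted p = 1.0) and Cacna1e (0.13) were not.

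Between SPN-like and GABAergic-like nuclei, where 8.53% of 9210 genes were called (3.19% higher, 5.34% lower), 40 list genes passed the filter, 9 were higher and 3 lower. The median log2 difference was 0.29 over these 40 genes and -0.62 over all genes tested. Cacna1e rose in SPN-like nuclei to 635 ± 199 CPM, against 135 ± 88.8 CPM in GABAergic-like nuclei (2.56 ± 0.53, 12 of 12 vectors, edgeR adjusted p = 0.0024). Among the beta subunits, the cytoplasmic partners of the high-voltage pores, Cacnb2 alone was called, at 215 ± 62.7 against 71.5 ± 45.3 CPM (edgeR adjusted p = 0.011). This call was lost (edgeR adjusted p = 0.088) in the libraries whose names carry the number S40326, where 9 vectors remained. That series holds 408 labelled nuclei in all, of which the fit used only SPN-like and GABAergic-like ones. Rem2, a small GTP-binding protein that inhibits high-voltage channels, had 121 ± 128 CPM in SPN-like and 4.79 ± 11.9 CPM in GABAergic-like nuclei.

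Calcium pumps and stores gave 5 of the 9 higher genes. Atp2b1 reached 3743 ± 601 CPM in SPN-like and 535 ± 136 CPM in GABAergic-like nuclei (2.87 ± 0.16, edgeR adjusted p = 4.29e-11). The ryanodine receptor genes Ryr3, at 625.3 ± 129 against 16.1 ± 16.5 CPM, and Ryr1, at 271 ± 159 against 8.37 ± 16.9 CPM, were higher in 12 of 12 vectors. The lower genes included Hcn3, a hyperpolarization-activated channel gene, at 3.91 ± 13.5 CPM in SPN-like and 32.8 ± 29.2 CPM in GABAergic-like nuclei, and the sodium-calcium exchanger gene Slc8a1, at 30.1 ± 91.2 against 214 ± 198 CPM. Without the vector as a block, Hcn3 and Slc8a1 were not called (edgeR adjusted p = 0.25 and 0.13).

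Between non-neuronal and neuronal nuclei, where 34.7% of 9789 genes were called (2.1% higher, 32.6% lower), 38 list genes passed the filter, 26 were lower and 1 was higher. Cacna1e averaged 7.43 ± 18.2 CPM in non-neuronal and 348 ± 202 CPM in neuronal nuclei, and Cacna1a, the P/Q-type pore gene, 4.34 ± 11.4 against 168 ± 69.6 CPM. Itpr2, an inositol trisphosphate receptor known from astrocytes, was the higher one, at 110 ± 112 CPM in non-neuronal and 6.22 ± 10.4 CPM in neuronal nuclei (edgeR adjusted p = 0.021, higher in 11 of 15 vectors).

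Between Pvalb-marker and Sst-marker nuclei, where edgeR called 0.41% of 8302 genes (0.229% higher, 0.181% lower), 31 list genes passed the filter. Cacna1e was the 1 called, at 22.9 ± 41.3 CPM in Pvalb-marker and 278 ± 148 CPM in Sst-marker nuclei. It was lower in Pvalb-marker nuclei in 14 of 14 vectors (-5.74 ± 1.06, edgeR adjusted p = 0.0085). No list gene was called higher in Pvalb-marker nuclei with edgeR, where 3 had an unadjusted p below 0.05 and DESeq2 called 3. Over all 8302 genes, 442 had an unadjusted p below 0.05 in either direction with edgeR, and DESeq2 called 380 higher. The call of Cacna1e was lost with a minimum of 5 nuclei (adjusted p = 0.13) and in the S40326 libraries alone (0.075). Between Drd1-type and Drd2-type nuclei, where edgeR called 0.0998% of 7017 genes (0.0285% higher, 0.0713% lower), 34 list genes passed the filter. Of these, edgeR called none, 1 had an unadjusted p below 0.05, and DESeq2 called none. Over all 7017 genes of that comparison, 196 had an unadjusted p below 0.05 with edgeR, and DESeq2 called 230.

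The genes whose pattern was most like that of each member were ranked by Pearson correlation of log2(CPM + 1) over 60 sums by class and vector, among 10637 genes with a mean of at least 10 CPM. The sums share vectors and differ in depth, so the values describe these sums only. For Cacna1g the first 3 were Syt13 (r = 0.87), Sphkap (0.87) and Vwa5b2 (0.84). For Cacna1h they were Stk26 (0.72), Gm26760 (0.71) and Gm12122 (0.70), and for Cacna1i Cdh8 (0.68), Frmd3 (0.68) and Stx3 (0.67). For Cacna2d1 they were Sorbs2 (0.77), R3hdm1 (0.77) and Igsf9b (0.75), for Cacna2d2 Rbms3 (0.84), Akain1 (0.78) and Tiam1 (0.77), and for Cacna2d3 Trank1 (0.85), Myt1l (0.85) and Lrrc7 (0.83). Among the 6 genes themselves, r was highest for Cacna1h with Cacna1i and Cacna2d1 with Cacna2d3 (0.55 each) and lowest for Cacna1g with Cacna1h (-0.04).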

How the data were processed

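Read counts per gene and nucleus were deposited by the authors as 1 table; per the submitters' processing notes reads were aligned with STAR 2.7.2a to mm10, while the sources used here give neither annotation nor counting rule. Of its 2501 nuclei, 1701 columns matched no label and were not used. Counts were summed per vector and class (at least 3 nuclei of each; 721094 to 9880440 counts per sum) and tested with edgeR 4.0.16 (filterByExpr at its defaults, TMM, quasi-likelihood, vector as a block because both sums of a pair come from the same vector, Benjamini-Hochberg over all genes tested). The vector block pairs samples by their label; title numbers do not. CPM are counts scaled to a total of 1e+06, computed here. Nuclei were clustered with scanpy 1.11.5, the rule that names clusters was settled once they had been seen, and no doublet caller was run. Of the gene identifiers, 32158 matched a symbol. Named subclusters of Pvalb and Sst type could not be fitted, so marker sums per nucleus took their place. The list genes named are the called ones, at most 3 per list and direction by smallest p, and the 3 most alike per member, and 1 gene under this rule is not reported here. The 6 genes and the lists were chosen with earlier results of these data known. With the vector as a block, p-values measure how the difference within a vector varies from vector to vector. This variation includes the sampling of as few as 3 nuclei per sum. The animals of a vector are not named. The scripts were tested on simulated data.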

Additional observations from a re-analysis of the deposited data

Results flagged for a closer look

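In 24 groups of 4 to 10 vectors, the highest or lowest vector was compared with the rest by Dixon's test, and chance alone flags about 1 group in 20. Several of the groups are mostly at 0, where any vector with reads stands apart. In Drd1-type nuclei, Cacna2d3 stood apart under hI56i at 1990.0 CPM, with the next vector at 1421 CPM, and Cacna1i under AiE0140h at 239.9 CPM, with the next at 112 CPM. Cacna1g stood apart there under AiE0475m at 1.13 CPM. In Drd2-type nuclei, Cacna2d1 stood apart under AiE0391h at 613 CPM, with the next at 198 CPM, and Cacna1g under AiE0743m_3xC2 at 100.2 CPM, with the next at 0.94 CPM.

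In astrocyte-like nuclei, the vectors apart were AiE0391h for Cacna1g (2.36 CPM), AiE0401h for Cacna1h (39.3 CPM) and Cacna2d1 (36.1 CPM), and AiE0390m for Cacna2d2 (4.29 CPM). In oligodendrocyte-like nuclei they were DLX2.0 for Cacna1g (4.49 CPM), AiE0682h for Cacna1h (22.6 CPM) and Cacna2d3 (96.2 CPM), and AiE0140h for Cacna2d1 (361 CPM).

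The 102 labelled nuclei under 1000 genes, which enter no comparison, held reads of 4 of the 6 genes. Over these nuclei Cacna2d3 had 59.7 CPM (reads in 3 nuclei), Cacna2d2 14.2 CPM (2 nuclei), Cacna2d1 11.6 CPM (1 nucleus) and Cacna1i 5.24 CPM (1 nucleus), above the 0.122 CPM that 3 counts make of their total.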

How the results depend on the processing

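The numbers of genes called depended on the test and on the vectors kept. Of 283 called between GABAergic-like and glutamatergic-like nuclei, the count became 484 without the filter, 1529 with DESeq2, 98 in the libraries of series S40326 alone (a number in the library names) and 41 without the runs holding SPN-like nuclei, an alternative chosen after seeing the data. Of 786 between SPN-like and GABAergic-like nuclei it became 1413, 2779 and 382 under the first 3. Of 3398 between non-neuronal and neuronal nuclei it became 5556, 6527 and 2265 under these 3, and 230 in series S40324 alone. Of 34 between Pvalb-marker and Sst-marker nuclei it became 87, 622 and 7, 10 in S40324 alone, 16 with at least 5 nuclei and 14 without the runs holding SPN-like nuclei, and leaving out 1 vector gave 12 to 29. Of 7 between Drd1-type and Drd2-type nuclei it became 12 without the filter and 230 with DESeq2. Leaving out 1 vector gave 207 to 347, 661 to 825, 2957 to 3766 and 5 to 8 in the other 4. Series S40324 alone could not be fitted for 3 comparisons.

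Without the vector as a replicate block, which is the pairing used, the counts were 254, 635, 1083, 16 and 5 in the order above. The share of calls that were higher then was 44.5% against 53.4% with the block for GABAergic-like nuclei and 50.4% against 37.4% for SPN-like nuclei. DESeq2 gave 65.4% and 24.5%.

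In the Drd1-type against Drd2-type comparison the signs of uncalled members were not stable. The log2 difference of Cacna2d3 was -0.034 with RLE scaling and with DESeq2, -0.34 with at least 5 nuclei and -0.062 without hI56i, with a range of -0.062 to 0.20 over the vectors left out in turn. That of Cacna1h was 0.018 without the filter, 0.16 without the block, 0.88 in S40326 alone, 0.17 from Drd1 and Drd2 reads alone, and 0.30, 0.45 and 0.44 without AiE0078h, AiE0387m and AiE0450h (range -0.51 to 0.45). That of Cacna2d1 was -0.23 without the block, -1.21 with at least 5 nuclei and -0.016 without hI56i (range -0.016 to 1.07), and that of Cacna1i -0.51 with at least 5 nuclei. In the Pvalb-marker against Sst-marker comparison, Cacna2d2 was at -0.34 in S40324 alone. With the clusters in place of marker sums, also chosen after seeing the data, 44 genes were called, 20 of them shared, and Cacna2d3 was called (-7.35 ± 1.65, edgeR adjusted p = 0.030). The causes were not tested. In S40324 alone, glutamatergic-like nuclei (4 vectors) had 622 CPM of Cacna2d1, 42.3 of Cacna1h, 65.6 of Cacna1i and 1.52 of Cacna2d2, SPN-like nuclei 43.5 of Cacna1h and 0 of Cacna1g, and GABAergic-like nuclei 26.98 of Cacna2d1. In S40326 alone, Cacna1h was at 10.46 CPM in glutamatergic-like and 11.6 CPM in GABAergic-like nuclei and Cacna1i at 20.5 CPM in glutamatergic-like nuclei. With classes from the highest marker level, Cacna1g in SPN-like nuclei was at 9.51 CPM, and without the runs holding SPN-like nuclei, Cacna1h in GABAergic-like nuclei was at 3.87 CPM. The other neuronal levels stayed within 1.5 times. Levels of Cacna1g in SPN-like nuclei and of the 6 genes in non-neuronal nuclei rest on few nuclei with reads.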
